A study of Mus musculus with 4 samples.

Results

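The 10 genes described here encode beta-catenin (Ctnnb1), both tankyrases (Tnks and Tnks2) and the core of the complex that marks beta-catenin for destruction, namely the scaffolds Axin1, Axin2 and Apc, the kinases Gsk3a, Gsk3b and Csnk1a1, and the ubiquitin ligase adaptor Btrc. They were chosen by gene symbol, and all 10 were found among the 24411 genes listed for each library. Polyadenylated RNA was sequenced from ICR mouse embryos at the late two-cell stage, produced by in vitro fertilization and cultured in KSOM medium, at 36 h after insemination (hpi, hours post-insemination). Control embryos received DMSO, the solvent of the inhibitor, and inhibitor-treated embryos received 6 µM of a MYC inhibitor, a small molecule that keeps the transcription factor MYC from pairing with its partner MAX. Treatment began at the one-cell stage, for which the sample labels give 3 hpi and the series text 6 hpi. Each group had 2 libraries, described in the study's methods as biological replicates, and each library pooled 10 embryos, so that variation between single embryos was not measured. The comparison asked how the transcripts of these genes differed in late two-cell embryos when MYC was inhibited across the period of zygotic genome activation (ZGA).

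Beta-catenin is both a component of cadherin junctions and a transcriptional co-activator. In the absence of a Wnt signal, Axin and Apc hold it in a complex in which casein kinase 1 alpha and then glycogen synthase kinase 3 phosphorylate it, and the F-box protein encoded by Btrc binds the phosphorylated form and directs its ubiquitination and degradation. Tankyrases attach poly(ADP-ribose) to Axin, which leads to the loss of Axin and spares beta-catenin. In the mouse, the oocyte supplies beta-catenin to the embryo, maternal transcripts are cleared as the embryonic genome is activated, and Myc is a textbook target of beta-catenin.

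Promoter sequence was examined because MYC and MAX bind the E-box CACGTG and beta-catenin acts through TCF proteins, whose site is CTTTGAT. The RefSeq promoter table (GRCm38.p6) held 6 windows of 300 bases, each spanning an annotated transcription start, for 5 of the 10 genes: Ctnnb1 with 2 overlapping windows, Tnks2, Axin2, Gsk3a and Gsk3b. On either strand, 0 of these 6 windows held CACGTG, which 7.15% of all 32851 windows held, and 0 held CTTTGAT, which 3.73% held. The GC box GGGCGG, the letters bound by SP1 and related factors, was found in 35.7% of all windows. It occurred 3 times in each Ctnnb1 window, 2 times in the Axin2 window and 1 time in the Gsk3a window, and was not found in the Gsk3b or Tnks2 window. G and C made up from 54.3% (Gsk3a) to 75.3% (Ctnnb1) of the bases, against a median of 52.7% over all windows. The windows are shown for Ctnnb1 and Gsk3a, whose levels lay about 2-fold apart between the groups in opposite directions, and for Axin2, itself a target of beta-catenin. Each is written 5′ to 3′ on the strand of the gene, with GC boxes (GGGCGG, or CCGCCC where the box lies on the other strand) in capitals. The Ctnnb1 window is chr9:120933150-120933449 on the plus strand, the Gsk3a window chr7:25237802-25238101 on the minus strand and the Axin2 window chr11:108920099-108920398 on the plus strand. The Axin2 window lies downstream of the start of the gene's span, at 108917828, and does not cover it. A match to these letters is a description of the sequence and does not show that a factor binds there.
Ctnnb1: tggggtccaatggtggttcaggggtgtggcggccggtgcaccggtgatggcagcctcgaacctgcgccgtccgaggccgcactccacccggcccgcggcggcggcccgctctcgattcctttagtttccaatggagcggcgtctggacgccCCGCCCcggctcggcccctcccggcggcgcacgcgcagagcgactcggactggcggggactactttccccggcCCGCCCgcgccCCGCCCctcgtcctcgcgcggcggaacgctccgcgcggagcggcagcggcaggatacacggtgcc
Gsk3a: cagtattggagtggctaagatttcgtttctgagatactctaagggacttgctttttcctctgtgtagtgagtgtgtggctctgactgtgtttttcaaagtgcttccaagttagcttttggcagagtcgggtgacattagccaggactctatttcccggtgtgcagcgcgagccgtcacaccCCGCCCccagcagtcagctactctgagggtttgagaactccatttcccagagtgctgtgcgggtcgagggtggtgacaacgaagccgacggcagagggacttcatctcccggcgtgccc
Axin2: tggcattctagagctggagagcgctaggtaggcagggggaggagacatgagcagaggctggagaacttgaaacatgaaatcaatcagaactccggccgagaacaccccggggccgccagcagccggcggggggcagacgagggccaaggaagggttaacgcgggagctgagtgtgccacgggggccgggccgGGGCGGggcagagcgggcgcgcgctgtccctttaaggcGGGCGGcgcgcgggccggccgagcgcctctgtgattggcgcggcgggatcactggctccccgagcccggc

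The summed expected counts, RSEM's estimates of the fragments from each gene, ranged from 18206584 to 20718690 per library. Levels are given below as CPM, the count of a gene scaled to the same total in each library, after edgeR's TMM correction, and levels of different genes are compared only as FPKM, which also divides by effective transcript length. The counts carry no molecular identifiers, so PCR copies of 1 molecule could be counted more than 1 time, and depth bounds counting error only. The control libraries were less alike than the inhibitor-treated ones: of the 13549 genes with enough counts to be tested, 37.3% lay more than 2-fold apart between the controls and 15.9% between the treated libraries. Control replicate 1 was the control farther from the treated libraries for 77.2% of the tested genes and for 9 of the 10 genes described here, with Axin1 the exception. All 8 markers of the two-cell stage and all 8 oocyte markers were detected. The two-cell list does not separate early from late two-cell genes. The summed FPKM of the two-cell markers was 1116 and 1829 in the controls and 1944 and 2097 in the treated libraries, and that of the oocyte markers was 913 and 2225 against 4548 and 3763. Among the two-cell markers Pramel7 had the opposite order, at 448 and 237 CPM in the controls and 89.0 and 157.6 CPM in the treated libraries (unadjusted p = 0.0156 in edgeR, DESeq2 adjusted p = 0.0401), and Dux and Sp110 had log2FC of -0.85 and -0.29. The oocyte markers, Zp3 apart, moved with the treatment and with control replicate 1, and their part in the results below was not tested. Of the cumulus cell markers, 3 of 8 had enough counts, with summed FPKM from 1.07 to 7.31 and Ptx3, Amh and Foxl2 at 0. Of the sperm markers, 1 of 5 had enough counts, with summed FPKM from 2.7 to 16.1 and Prm1 and Tnp2 at 0. Each library held 10 embryos collected at the two-cell stage. In RNA captured by its poly(A) tail, less transcript per cell and shorter tails cannot be told apart.

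None of the 10 genes differed between the groups by the quasi-likelihood test of edgeR, adjusted by Benjamini-Hochberg, at |log2FC| > 1 and an adjusted p under 0.05, where log2FC is the log2 ratio of inhibitor-treated over control embryos. The same held for all 13549 tested genes, of which 0 (0.0%) were called, 2013 had an unadjusted p under 0.05 and the smallest adjusted p was 0.333. DESeq2 on the same genes called 566 (4.18%), none of them among the 10. Of the 10 genes, 5 were lower and 5 higher in treated embryos, with a median log2FC of -0.01 against 0.04 over all tested genes. Ctnnb1 and Btrc were lower with an unadjusted p under 0.05, a share of 10.1% among all tested genes, and none of the 10 was higher at that threshold, which 4.72% of all tested genes were. Ctnnb1, Tnks2, Gsk3b and Btrc were lower in both treated libraries than in both controls, as were 28.3% of all tested genes. Axin2, Apc and Gsk3a were higher in both, as were 28.9%. The groups overlapped for Tnks, Axin1 and Csnk1a1. The plot of CPM by library shows the controls farther apart than the treated libraries for every gene except Axin1. For Gsk3a both gaps were nearly equal, and most of its spread lay between the groups.

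**Figure D1:**
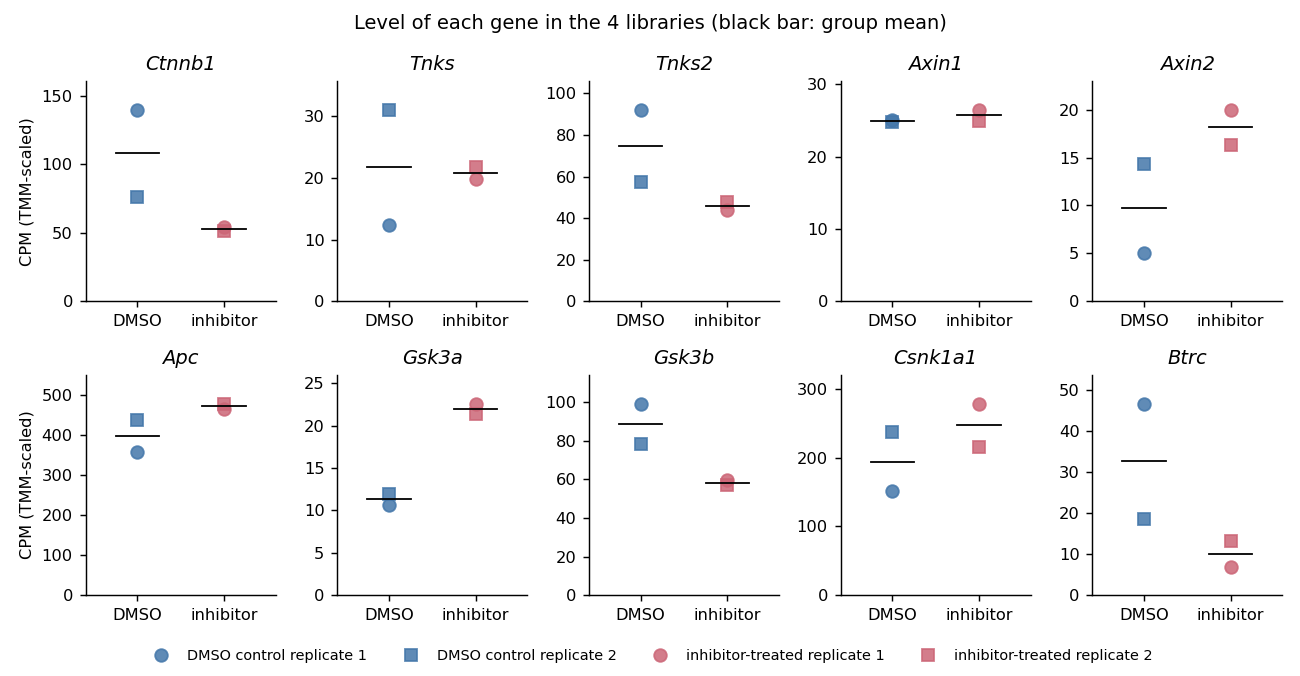
Level of each of the 10 genes in CPM scaled with TMM factors, on linear axes from 0, in control (DMSO) and inhibitor-treated embryos; each point is 1 library of 10 embryos (circle replicate 1, square replicate 2) and the bar is the group mean. Gsk3a, for example, sat at 10.7 and 11.97 CPM in the controls and at 22.6 and 21.3 CPM in the treated libraries, whereas the controls of Ctnnb1, Tnks2, Axin2 and Btrc lay far apart.

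Beta-catenin transcripts were lower in inhibitor-treated embryos without passing the adjusted threshold. Ctnnb1 (chromosome 9, 120933400 to 120960507, plus strand, GRCm38.p6) was at 139.6 and 75.98 CPM in control replicates 1 and 2 and at 53.8 and 51.6 CPM in treated replicates 1 and 2, from 2332, 1435, 1161 and 1081 counts. Both treated libraries lay below both controls, and the treated libraries were close to each other while the controls were 1.84-fold apart. Its log2FC was -1.03 (SE 0.42, 95% interval -2.01 to -0.05), a 2.05-fold lower level, with an adjusted p of 0.333 by edgeR's quasi-likelihood test and an unadjusted p of 0.041. The size of the difference depended on the control: without control replicate 1 the log2FC was -0.51 with an adjusted p of 0.403 in edgeR, and without control replicate 2 it was -1.41 with an adjusted p of 0.0039, the lowest of all alternatives tried, whose adjusted p reached 0.992. Exons of Ulk4 on the opposite strand overlap those of Ctnnb1, and the library kit does not mark strand, so their reads cannot be told apart there. Ulk4 itself was assigned 59, 72, 62 and 128 counts, well below the Ctnnb1 counts in every library.

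The tankyrase transcripts did not share a pattern. Tnks2 (chromosome 19, 36834129 to 36893477, plus strand) was at 92.2 and 57.2 CPM in the controls and at 43.7 and 47.8 CPM in the treated libraries. The groups did not overlap, and control replicate 1 was the highest of the 4. The log2FC of Tnks2 was -0.71 (SE 0.40, 95% interval -1.65 to 0.23; adjusted p = 0.414, edgeR), and it was -0.31 without control replicate 1 and -1.01 without control replicate 2. Tnks (chromosome 8, 34829179 to 34965690, minus strand) was at 12.5 and 31.1 CPM in the controls and at 19.8 and 21.8 CPM in the treated libraries. Both treated libraries thus fell between the controls, which were 2.50-fold apart in the opposite sense to those of Tnks2. With a log2FC of -0.07 (SE 0.54, 95% interval -1.32 to 1.19; adjusted p = 0.964, edgeR), the interval leaves room for a difference of over 2-fold in either direction. Leaving out control replicate 1 gave -0.56 and leaving out control replicate 2 gave 0.74, so the direction for Tnks was set by the choice of control.

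Of the 3 scaffolds, Axin1 was the steadiest gene of the set. Axin1 (chromosome 17, 26131217 to 26195811, plus strand), the constitutively expressed Axin that limits the assembly of the complex, was at 25.1 and 24.7 CPM in the controls and at 26.5 and 24.9 CPM in the treated libraries. The groups overlapped, and all 4 values were close to each other. Its log2FC was 0.04 with a 95% interval of -0.91 to 0.998 (adjusted p = 0.968, edgeR), which is wide because the test draws on the spread over all genes. Axin2 (chromosome 11, 108917828 to 108950783, plus strand), the Axin induced by beta-catenin as negative feedback, was at 5.09 and 14.3 CPM in the controls and at 20.0 and 16.3 CPM in the treated libraries. Both treated libraries lay above both controls, control replicate 2 close to them and control replicate 1 far below, with 85 counts. The log2FC of Axin2 was 0.90 (SE 0.60, 95% interval -0.51 to 2.31; adjusted p = 0.472, edgeR), and it was 0.36 without control replicate 1 and 1.83 without control replicate 2. Apc (chromosome 18, 34220297 to 34322190, plus strand), the large scaffold that hands beta-catenin on within the complex, was at 357.6 and 437.0 CPM in the controls and at 464.4 and 478.6 CPM in the treated libraries. The groups did not overlap, but the gap between them was smaller than that between the controls. Its log2FC was 0.25 (SE 0.36, 95% interval -0.58 to 1.07; adjusted p = 0.753, edgeR), or 0.13 without control replicate 1.

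The kinase transcripts differed in direction, and the isoforms of glycogen synthase kinase 3 lay on opposite sides. Gsk3a (chromosome 7, 25228258 to 25237851, minus strand) was at 10.7 and 11.97 CPM in the controls and at 22.6 and 21.3 CPM in the treated libraries. Here the controls were close to each other, 1.12-fold apart, as were the treated libraries, and the groups were well separated. The log2FC of Gsk3a was 0.96 (SE 0.45, 95% interval -0.09 to 2.003; adjusted p = 0.353, edgeR), a 1.94-fold higher level, and it stayed at 0.89 and 1.04 without control replicate 1 and without control replicate 2. Exons of the antisense gene 9130221H12Rik overlap Gsk3a, with 0, 11, 7 and 19 counts of its own against 178, 226, 487 and 447 for Gsk3a, and reads from the shared stretch cannot be told apart. Gsk3b (chromosome 16, 38089001 to 38246084, plus strand) was at 99.3 and 78.5 CPM in the controls and at 59.6 and 57.1 CPM in the treated libraries. Both treated libraries lay below both controls, and control replicate 1 was again the farther one. Its log2FC was -0.61 (SE 0.36, 95% interval -1.45 to 0.24; adjusted p = 0.427, edgeR). Csnk1a1 (chromosome 18, 61554236 to 61590320, plus strand), which encodes the casein kinase that places the first phosphate on beta-catenin, was at 152.2 and 237.0 CPM in the controls and at 279.0 and 215.6 CPM in the treated libraries. The groups overlapped, since treated replicate 2 lay below control replicate 2, and the log2FC was 0.35 (SE 0.39, 95% interval -0.56 to 1.25; adjusted p = 0.671, edgeR), or 0.075 without control replicate 1.

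Btrc (chromosome 19, 45363688 to 45533343, plus strand) showed the widest difference of the 10 genes. It was at 46.6 and 18.6 CPM in the controls and at 6.82 and 13.2 CPM in the treated libraries, from 779, 352, 147 and 277 counts. Both treated libraries lay below both controls, yet each group was spread widely, and control replicate 2 was nearer to treated replicate 2 than to the other control. The log2FC was -1.70 (SE 0.61, 95% interval -3.12 to -0.28), a 3.26-fold lower level, with an unadjusted p of 0.0247 and an adjusted p of 0.333 in edgeR, and DESeq2 gave an adjusted p of 0.0664. It was -0.88 without control replicate 1 and -2.22 without control replicate 2, and across all alternatives its adjusted p lay between 0.0078 and 0.992.

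With control replicate 2 left out, the lone control being assumed to vary like the treated libraries, edgeR called 4 of the 10 genes: Ctnnb1, Tnks2 and Btrc lower and Axin2 higher. In that fit 14.9% of all tested genes were called lower and 15.8% higher. With control replicate 1 left out instead, 0 of the 10 genes and 0.0% of the 13549 tested genes were called by edgeR, with 0 of the 10 and 1889 of all tested genes at an unadjusted p under 0.05. The plot of log2FC with each control left out shows that, for every gene except Axin1, the value without control replicate 1 lay below that without control replicate 2 in size or, for Tnks, on the other side of 0.

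**Figure D2:**
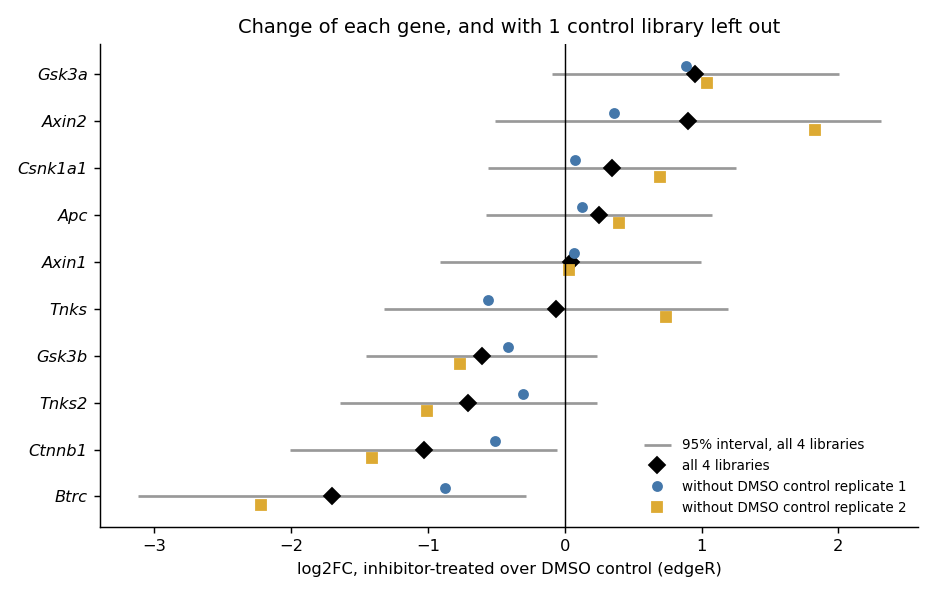
The log2FC of inhibitor-treated over control embryos for each gene by edgeR, from all 4 libraries (diamond, with its 95% interval as a line) and without control replicate 1 (circle) or control replicate 2 (square). Only the intervals of Ctnnb1 and Btrc exclude 0, before adjustment for the number of genes tested, and Tnks lies at -0.56 or 0.74 depending on the control left out.

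By FPKM the genes spanned a wide range of levels. In control embryos the mean was 109 FPKM for Csnk1a1 (SD 46.2, n = 2), then 31.9 for Ctnnb1 (SD 9.66) and 31.4 for Apc (SD 8.22). Tnks2 and Gsk3b followed at 11.3 and 10.5 FPKM and Axin1 at 7.0 FPKM, while Gsk3a, Btrc, Tnks and Axin2 came last at 5.50, 5.01, 3.50 and 2.42 FPKM. Neighbours in this order whose library values overlapped were Ctnnb1 and Apc, Tnks2 and Gsk3b, and each successive pair among Gsk3a, Btrc, Tnks and Axin2. In treated embryos the order was Csnk1a1 at 149 FPKM (SD 24.99, n = 2), Apc at 40.7 (SD 1.37), Ctnnb1 at 17.6 (SD 0.30) and Gsk3a at 11.6 (SD 0.30). Axin1, Tnks2 and Gsk3b lay together at 7.88, 7.75 and 7.62 FPKM with overlapping values, and Axin2, Tnks and Btrc followed at 4.78, 3.54 and 1.75 FPKM without overlap. Gsk3a thus stood below Gsk3b in both controls and above it in both treated libraries. By group means Btrc stood above Tnks and Axin2 in the controls and below both in the treated embryos. That control order came from control replicate 1, with Btrc at 6.76, Tnks at 1.76 and Axin2 at 1.12 FPKM. In control replicate 2 Btrc, at 3.25 FPKM, already lay below Axin2 at 3.73 and Tnks at 5.23 FPKM. Within a library, a ratio chosen after the values were seen, the FPKM of Apc was 0.661 and 1.49 times that of Ctnnb1 in the controls and 2.23 and 2.40 times in the treated embryos. The corresponding ratio of Csnk1a1 to Ctnnb1 was 1.98 and 5.66 in the controls and 9.39 and 7.58 in the treated embryos. In both ratios the treated libraries lay above both controls and the controls lay more than 2-fold apart.

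**Figure D3:**
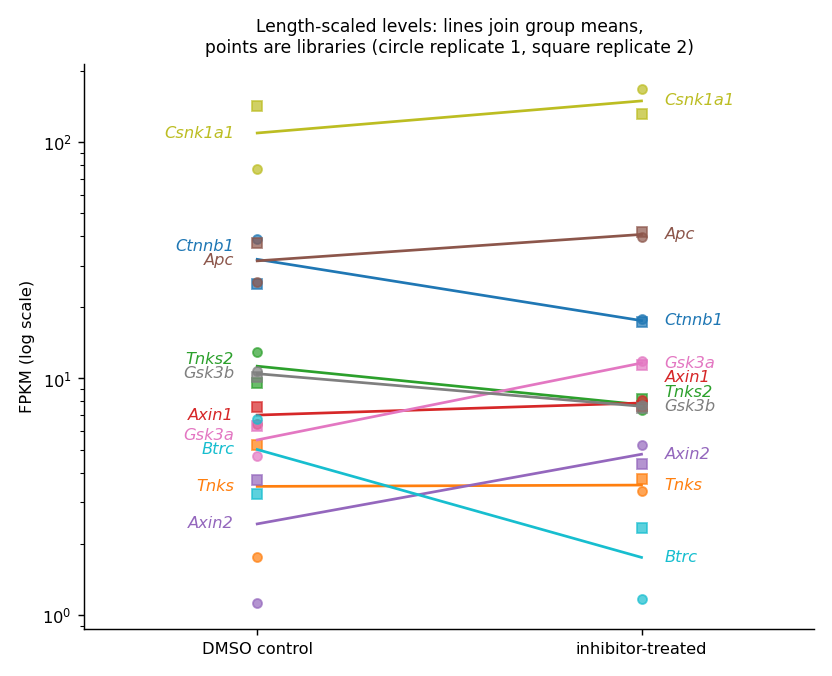
FPKM of the 10 genes on a log10 axis in control and inhibitor-treated embryos; circles are replicate 1, squares replicate 2, and lines join the group means. Csnk1a1 is the highest in both groups, and the lines of Gsk3a and Gsk3b, and of Btrc and both Tnks and Axin2, cross. In control replicate 2 Btrc already lies below Tnks and Axin2.

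The balance within each pair of paralogs was compared as the log2 ratio of their FPKM inside a library, which does not depend on library scaling. For Gsk3a over Gsk3b the log2 ratio was -1.20 and -0.69 in the controls and 0.62 and 0.60 in the treated libraries, so the beta isoform prevailed in both controls and the alpha isoform in both treated libraries. The difference was 1.55 on the log2 scale, and it was 1.298 and 1.808 with control replicate 1 and control replicate 2 left out. For Axin1 over Axin2 the ratio was 2.52 and 1.02 in the controls and 0.63 and 0.82 in the treated libraries, with Axin1 higher in all 4 and a difference of -1.05, which was -0.29 without control replicate 1 and -1.80 without control replicate 2. For Btrc over Fbxw11, which encodes the other beta-TrCP protein, the ratio was -1.31 and -2.93 in the controls and -4.16 and -3.11 in the treated libraries, a difference of -1.52, which was -0.71 without control replicate 1 and -2.32 without control replicate 2. Fbxw11 was the higher of these in every library and was itself at 75.2 and 93.5 CPM in the controls and at 79.4 and 74.0 CPM in the treated libraries. For Tnks over Tnks2 the ratio was -2.88 and -0.87 against -1.13 and -1.13, and the groups overlapped. A two-sided exact permutation test of 2 against 2 libraries cannot give a p below 0.333. That was the exact p for each of the 3 pairs without overlap (0.444 adjusted over the 4 pairs), and for Tnks over Tnks2 the exact p was 1.0.

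**Figure D4:**
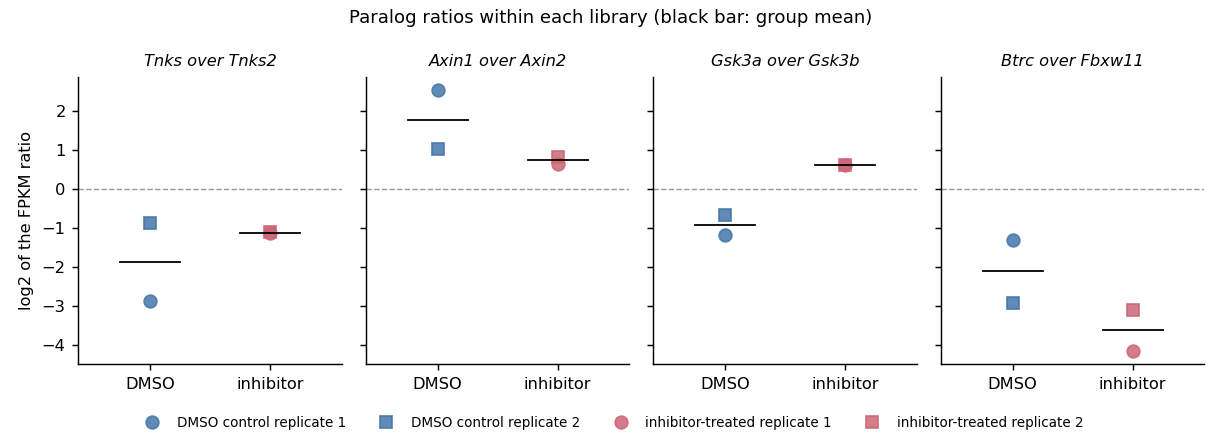
Log2 ratio of FPKM for 4 pairs of paralogs within each library of control (DMSO) and inhibitor-treated embryos; circles are replicate 1, squares replicate 2, bars are group means and the dashed line marks equal FPKM. The ratio of Gsk3a to Gsk3b is the only one that lies below the line in both controls and above it in both treated libraries.

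The rest of the Wnt pathway was described by 7 lists holding 120 further genes, of which 80 had enough counts. None passed the adjusted threshold in edgeR with all 4 libraries and no block (smallest adjusted p 0.333). Sfrp2, described below, passed it with DESeq2 on the same genes (adjusted p = 0.0498) and with the replicate number as a block in edgeR (adjusted p = 3.1e-08), the only one of these genes to do so in those fits. At an unadjusted p under 0.05 in edgeR, 5 of the 80 were lower and 5 higher, against 10.1% and 4.72% of all tested genes. The median log2FC of the 80 was 0.17 against 0.04 over all. Without control replicate 1 it was 0.20 against 0.03, and without control replicate 2 it was 0.39 against 0.16. The plot of log2FC by list sets the 10 genes beside each of them.

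Ligands were scarce. Of the 21 genes for Wnt proteins and their secretion, 19 had a mean FPKM under 1, 6 were at 0 in every library and 4 were tested, with none past an unadjusted p of 0.05. The most abundant were Porcn, which encodes the acyltransferase that lipidates Wnt proteins, at 10.1 and 6.09 CPM in the controls and 9.46 and 6.77 CPM in the treated libraries, and Wls, the Wnt carrier, at 2.04 and 8.31 against 2.50 and 6.87 CPM. Both overlapped between the groups. Wnt7a stayed under 1 CPM in every library, and Wnt9b ranged from 0.0599 CPM in control replicate 1 to 3.62 CPM in treated replicate 1.

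Among 23 receptors and transducers, 17 were tested and had a median log2FC of 0.58 (0.26 without Fzd6, which was at 0 in both controls and at 0.649 and 0.811 CPM in the treated libraries). Without control replicate 1 the median was 0.25, and without control replicate 2 it was 0.92. In this list 1 gene was lower and 1 higher at an unadjusted p under 0.05. Fzd9, a Frizzled receptor, was at 12.5 and 5.24 CPM in the controls and at 2.04 and 1.96 CPM in the treated libraries, with a log2FC of -2.15 (SE 0.72), or -1.37 without control replicate 1. Dvl3, a Dishevelled protein that relays the signal from Frizzled, was at 0.659 and 1.85 against 5.47 and 7.25 CPM, with a log2FC of 2.33 (SE 0.84). Neither group pair overlapped, and the adjusted p was 0.333 for both in edgeR. The most abundant receptor genes were Ryk, a Wnt receptor with a kinase-like domain, with a log2FC of 0.71 (SE 0.45; 0.25 without control replicate 1), and Fzd7, with -0.15 (SE 0.43).

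Of 18 secreted or membrane modulators, 8 were tested, with a median log2FC of 0.17 (-0.07 without Sfrp2) and 2 higher at an unadjusted p under 0.05. This median was -0.55 without treated replicate 1, 0.76 without control replicate 1 and 1.40 with limma on log2(FPKM + 0.1). Kremen1, a receptor for the Wnt antagonists of the Dkk family, was at 4.61 and 6.25 CPM in the controls and at 14.1 and 14.98 CPM in the treated libraries (log2FC 1.42, SE 0.52). Sfrp2, a secreted Wnt-binding protein, was at 0 in both controls and had 21 and 698 counts in treated replicates 1 and 2. It therefore rests largely on 1 library, and no fold is given. Rspo2, which encodes a secreted enhancer of Wnt signalling, was the most abundant, at 41.9 and 145 CPM in the controls and at 186 and 165 CPM in the treated libraries. Its log2FC was 0.91 with all libraries and 0.29 without control replicate 1.

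Partners of the destruction complex and of tankyrase were the best covered list, with 23 of 24 genes tested and a median log2FC of -0.03. Lower at an unadjusted p under 0.05 were Ppp2cb, a catalytic subunit of protein phosphatase 2A, and Gskip, which binds glycogen synthase kinase 3. Ppp2cb was at 169 and 88.4 CPM in the controls and at 57.8 and 44.6 CPM in the treated libraries (log2FC -1.33, SE 0.44), and Gskip at 93.5 and 54.3 against 31.9 and 32.8 CPM (log2FC -1.19, SE 0.42). Both had an adjusted p of 0.333 in edgeR, and log2FC of -0.78 and -0.73 without control replicate 1. Amer1, which anchors Apc and Axin at the membrane, was at 5.45 and 11.1 CPM in the controls and at 22.7 and 16.5 CPM in the treated libraries (log2FC 1.24, SE 0.55, unadjusted p = 0.0566 in edgeR). The most abundant, Csnk2b of casein kinase 2 and Skp1a of the ubiquitin ligase that Btrc joins, had log2FC of -0.03 and 0.12 with overlapping groups.

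Of 21 nuclear partners, 19 were tested, with a median log2FC of 0.28 (0.195 without Tle2, which was at 0 in both controls). That median was 0.095 without control replicate 1 and 0.597 without control replicate 2. It was -0.0035 with at least 10 counts in every library, and -0.021 with limma on log2(FPKM + 1) and on log2(FPKM + 0.1). Smarca4, the ATPase of a chromatin remodeller that beta-catenin recruits, was lower at 63.6 and 28.3 against 15.7 and 18.2 CPM (log2FC -1.44, SE 0.51), with a log2FC of -0.72 without control replicate 1. The TCF family gene Tcf7 was higher at 3.71 and 2.97 against 8.58 and 11.9 CPM (log2FC 1.62, SE 0.60), as was Tbl1xr1, a co-factor exchanged at TCF sites, at 27.6 and 47.9 against 79.4 and 73.7 CPM (log2FC 1.02, SE 0.42). Each had an unadjusted p under 0.05 and an adjusted p of 0.333 or 0.334 in edgeR. The most abundant, the beta-catenin antagonist Cby1 and the acetyltransferase Ep300, had log2FC of -0.78 (SE 0.38) and -0.49 (SE 0.36; -0.20 without control replicate 1), with treated below control in both.

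Of 15 target genes of beta-catenin, 8 had a mean FPKM under 1 and 12 were tested, Axin2 included. The median log2FC of the 12 was 0.62, which was 0.32 without control replicate 1 and 1.65 without control replicate 2. It fell between Lgr5 and Rnf43, both with a mean FPKM under 1 and overlapping groups. With at least 10 counts in every library the median was 0.80. At an unadjusted p under 0.05 in edgeR, 1 of the 12 was lower, Myc, and 1 higher, Tcf7, against 10.1% and 4.72% of all tested genes. The log2FC of Tcf7, also a nuclear partner, was 1.62, and it was 1.805 and 1.46 without control replicate 1 and without control replicate 2. Myc was at 18.4 and 15.9 CPM in the controls and at 5.57 and 5.49 CPM in the treated libraries, with a log2FC of -1.64 (SE 0.50, unadjusted p = 0.0124, adjusted p = 0.333, edgeR). Unlike Ctnnb1, its controls were close to each other, and the log2FC was -1.51 and -1.74 without control replicate 1 and without control replicate 2. Lef1, which encodes another TCF family protein, was at 13.2 and 51.1 CPM in the controls and at 93.2 and 61.0 CPM in the treated libraries (log2FC 1.26, SE 0.64), with a log2FC of 0.605 without control replicate 1 and 2.55 without control replicate 2. Of the genes for partners of beta-catenin at cadherin junctions, 5 of 6 were tested, and all 5 had a log2FC above 0 with all libraries, none past an unadjusted p of 0.05. The alpha-catenin gene Ctnna1 and the p120-catenin gene Ctnnd1, the most abundant of them, had log2FC of 0.17 and 0.16, Cdh1 for E-cadherin had 0.34, and the scarcer Cdh2 and Jup had 1.84 and 1.18. Without control replicate 1 the log2FC was -0.0044 for Ctnnd1, 1.04 for Cdh2 and 0.80 for Jup, and without control replicate 2 it was 3.94 for Cdh2.

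**Figure D5:**
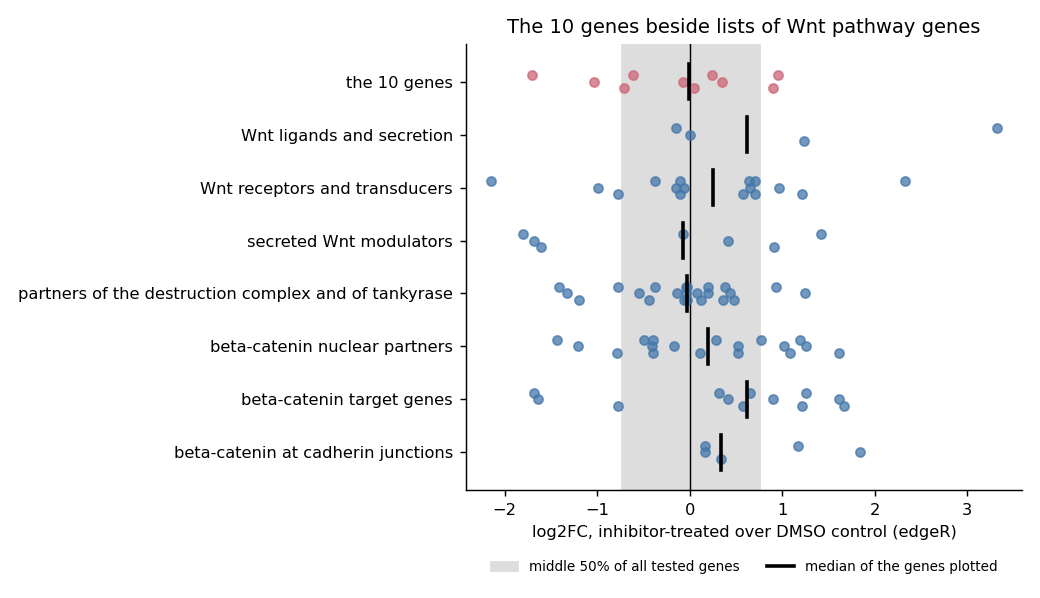
The log2FC of inhibitor-treated over control embryos by edgeR for the 10 genes and for the tested genes of 7 Wnt pathway lists, 1 point per gene; Fzd6, Sfrp2 and Tle2, at 0 in both controls, are left out. Bars are medians of the points shown and grey marks the middle 50% of all tested genes; the median of the 10 genes lies at -0.01 and that of the target genes at 0.62 with all 4 libraries.

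The profile of Ctnnb1 over the 4 libraries was compared with that of the 5156 tested genes whose mean FPKM reached 10, using the root-mean-square distance between centred log2(CPM + 0.5) values. The nearest were Cdca8, a subunit of the chromosomal passenger complex, at a distance of 0.0309, Hnrnpm, an RNA-binding splicing protein, at 0.0314, and Gtf2e2, a subunit of the general factor TFIIE, at 0.0327. Cdca8, for example, was at 1110 and 621 CPM in the controls and at 436 and 437 CPM in the treated libraries. There were 125 genes within a distance of 0.1 of Ctnnb1 and 10 within 0.1 of Btrc. The nearest to Btrc were Pdxk, which encodes pyridoxal kinase, at 0.0479, Nudt2, which encodes a nucleotide hydrolase, at 0.0605 and the snoRNA host gene Snhg3 at 0.0673. With 4 libraries such likeness describes these libraries alone.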

How the data were processed

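RNA-seq libraries were grouped and numbered by the labels of the deposited samples. The authors made cDNA from polyadenylated RNA with a SMART-Seq v4 PLUS kit, mapped read pairs to mm10 with STAR 2.7.10, kept reads that mapped uniquely and ran RSEM 1.3.3. The deposited expected count is RSEM's estimate, not normalized, and between 3.97% and 4.49% of a library's values were fractional. Deposited FPKM values are scaled to effective length and library fragments. The TPM deposited by the authors sums to 1000000 in each library and served to check the unit. The effective lengths deposited by the authors entered 1 alternative.

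Expected counts were rounded, filtered with filterByExpr (minimum count 10, minimum total 15), scaled with TMM factors of 0.873, 1.04, 1.04 and 1.06 (control replicates 1 and 2, treated replicates 1 and 2) and tested over 13549 genes with edgeR 4.0.16 in R 4.3.3, using glmQLFit with robust estimates and glmQLFTest with Benjamini-Hochberg adjustment. The common biological coefficient of variation was 0.557. Total counts of 18206584 to 20718690 set the depth, and the 2 libraries of a group set the precision. Coordinates come from RefSeq and overlaps from GENCODE vM21, both on GRCm38, the build of mm10.

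The 10 genes and all lists were chosen with earlier results of these data known. Named genes were the 10, the 3 tested genes of each list with the smallest unadjusted p, the 2 with the highest mean FPKM, Fbxw11, and the 3 genes nearest in profile to Ctnnb1 and to the gene of the set with the smallest p, Btrc. Other fits used DESeq2 1.42.0 (same genes; every gene with 1 count or more; transcript lengths as offsets), limma 3.58.1 on log2(FPKM + 0.1) or log2(FPKM + 1) where the mean FPKM was 1 or more, size factors of DESeq2 or library totals for scaling, no filter or a minimum of 10 counts per library, a block for the replicate number, and each library left out in turn.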

Additional observations from a re-analysis of the deposited data

How the results depend on the processing

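Of 140 values of log2FC, 10 genes under 14 alternatives, 130 kept their direction and their side of the thresholds, 4 passed the thresholds (Ctnnb1, Tnks2, Axin2 and Btrc, without control replicate 2) and 6 had the opposite direction, all of them Tnks. The log2FC of Tnks was 0.13 and 0.21 with limma on log2(FPKM + 1) and log2(FPKM + 0.1), 0.02 with library totals, 0.076 with the replicate block, and from -0.56 to 0.74 with 1 library left out. For Tnks over Tnks2 the difference in log2 ratio was -0.26 without control replicate 1 and ranged up to 1.75 with 1 library left out. Against 0 genes called in all, DESeq2 called 566 on the same genes, 524 on all genes with a count and 512 with transcript lengths, edgeR called 644 with no filter, and leaving out 1 library gave from 0 to 4172. Of the 10 genes, 2 had an unadjusted p under 0.05, against 1 under each limma setting and from 0 to 7 with 1 library left out. The 7 came from the fit without control replicate 2, which leaves 1 control. That fit called 4172 of all 13549 tested genes at the stricter thresholds, so the 7 is not read as a feature of these genes. The median log2FC of the 10 genes, -0.01 with all libraries, became 0.14 and 0.19 under the limma settings and ranged from -0.12 to 0.22 with 1 library left out. Of the genes of the pathway lists, 10 had an unadjusted p under 0.05, against 17 with no filter and from 1 to 32 with 1 library left out. The 32 came from the same fit without control replicate 2 and is not read as a feature of the pathway either. With no filter, 2881 of all 18208 genes tested by edgeR had an unadjusted p under 0.05. The causes of these shifts were not tested. The replicate numbers pair nothing in the labels, and deviations of same-numbered libraries had a correlation of -0.07. With the number as a block, edgeR called 44 genes, none of the 10. In that fit 1 of the 10 had an unadjusted p under 0.05, as did 1797 of all 13549 tested genes. Library totals in place of TMM factors moved the median log2FC of all tested genes to 0.17.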

Other observations

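Genes outside the naming rule, chosen after their values were seen, add to the account of the complex. Cul1, the cullin backbone of the ubiquitin ligase that Btrc joins, was at 614 and 1818 CPM in the controls and at 2545 and 2121 CPM in the treated libraries, the opposite order to that of Btrc. Its log2FC was 0.94 (SE 0.55; adjusted p = 0.421, edgeR), and it was 0.37 without control replicate 1. Rbx1 of the same ligase was at 607 and 508 CPM in the controls and 455 and 407 CPM in the treated libraries. Like Btrc it was lower in both treated libraries than in both controls, as were 28.3% of all tested genes. Its lowest library was treated replicate 2, whereas that of Btrc was treated replicate 1. The log2FC of Rbx1 was -0.37 (SE 0.36; adjusted p = 0.618, edgeR), and it was -0.22 without control replicate 1. Rnf146, the ubiquitin ligase that recognises poly(ADP-ribosyl)ated Axin, was at 60.4 and 85.6 CPM in the controls and at 122.7 and 80.8 CPM in the treated libraries, so its groups overlapped. Usp34, a deubiquitinase that stabilises Axin, was at 318 and 396 CPM in the controls and at 463 and 456 CPM in the treated libraries, without overlap, and its log2FC was 0.36 (SE 0.36; adjusted p = 0.623, edgeR). Among the oocyte markers, Zp3, a zona pellucida gene, went against the summed level of its list: it was at 244 and 75.1 CPM in the controls and at 59.1 and 63.9 CPM in the treated libraries, with control replicate 1 far above the other 3.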
